A study of Mus musculus with 3 samples.

Results

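Chromatin of Min6 cells that overexpressed Ets-1 was precipitated with an antibody against Ets-1 and compared, region by region, with input chromatin that had not been precipitated. The regions described are those of the deposited comparison table on chromosomes 1 to 19 and X with 5 or more reads in the Ets-1 precipitation and 20 or fewer in the input. There were 11236 such regions among 543367 listed, or 2.07% of the 542768 listed on these chromosomes. Reads choose the regions, so their ratios to input are descriptions.

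Min6 is a mouse β-cell line from an insulinoma that makes and secretes insulin. The cells grew in medium with 25 mM glucose, and the precipitated sample had been infected for 24 h with an adenovirus that overexpresses Ets-1 (Ad-Ets-1). The study also holds a precipitation after a control virus that carries GFP (Ad-GFP), which is not compared here. Each side of the comparison is 1 library, the input's virus is not given in the sources used here, and the antibody does not tell the cells' own Ets-1 from that of the virus. The comparison therefore has no replicates, and it is described without tests.

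Ets-1 belongs to the ETS family of transcription factors, which share a DNA-binding domain, the ETS domain, that reads a GGAA core. The preferred site around that core, CCGGAAGT, holds a CG dinucleotide and is common close to the start sites of genes that most cells use, where several ETS factors can bind it. The related word CAGGAAGT is the form met more often in enhancers, often next to sites of partner factors. In chromatin immunoprecipitation with sequencing (ChIP-seq), input shows how many reads a region gives without any antibody, which differs with open chromatin, repeats and mappability.

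The following stretches hold an ETS word at regions described below and show where it lies. They are the plus strand of GRCm38 (mm10), 5′ to 3′, and capitals mark the words CCGGAAGT and CAGGAAGT or their reverse complements. The first 6 are the promoter regions with the highest ratios to input, raised to at least 3 reads, among those with a word within 200 bp around the region's centre. The last is the summit of the region with the highest ratio of all, 25376 bp from the start of Klf5.
Rpl32, chr6:115808773-115808860: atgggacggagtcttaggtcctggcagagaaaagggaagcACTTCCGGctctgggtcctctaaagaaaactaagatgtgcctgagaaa
Emc7, chr2:112455018-112455047: ggcggggtaggACTTCCGGgccgtaggcct
Kdm5a, chr6:120364376-120364405: gcagcacgttaACTTCCGGgagcgtcctgc
Hist1h1c, chr13:23739657-23739686: gctgggctgctCAGGAAGTgctatgggctg
Slc4a1ap, chr5:31527050-31527079: cgccagctcccCAGGAAGTcagtagcgagt
Akt1s1, chr7:44850312-44850341: ccccgggcgggACTTCCGGtcccgatcccc
Klf5 distal, chr14:99324670-99324789: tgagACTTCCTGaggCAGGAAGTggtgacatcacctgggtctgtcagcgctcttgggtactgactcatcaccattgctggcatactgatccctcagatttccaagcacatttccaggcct

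The region near Klf5, a zinc finger transcription factor of proliferating epithelia, stood apart from all others. It held 169 reads in the Ets-1 precipitation and 4 in the input, an 85.8-fold ratio after scaling to library totals (95% interval 32.5 to 324). The authors' peak there, at chr14:99324530-99325536 and annotated as distal intergenic, had a fold of 15.2 and a −log10 q of 25.0 in the authors' deposited table. The region held 3 ETS words, and those near its summit lie 3 bases apart on opposite strands in the stretch printed above. At the Klf5 start site itself another region held 5 reads against 0.

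Most of the 11236 regions rest on far fewer reads. The library totals that the deposited counts and RPM values (reads per library total) imply were 1938473 for the Ets-1 precipitation and 3937473 for the input, so that 1 precipitated read weighs as much as 2.03 input reads. The median region held 6 reads in the precipitation, 73.0% held 5 or 6, 824 held 10 or more and 78 held 20 or more, with 170 as the highest. Even read numbers made up 66.7% of the regions, as arises when both mates of a sequenced pair are counted, so that 6 reads can be 3 fragments. In the input 9593 regions (85.4%) held 0 reads, 986 held 1, 424 held 2, 80 held 3, and 153 held more than 3. Among regions with 2 or more input reads, even numbers prevailed as well, at 544 regions. Just outside the limits, 25976 regions held 4 precipitated reads against 2744 that held 5, and 3 regions held 21 input reads against 5 that held 20.

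Ratios were computed on scaled reads with input raised to a floor of 3 reads, since a region with 0 input reads gives no ratio. By this measure 8444 regions (75.2%) reached a fold of 4, against 1.56% of all listed regions on these chromosomes. That count restates the rule, since 6 reads over the floor give 4.06 and 5 reads give 3.39. A fold of 8 was reached by 265 regions (2.36%), 7 lay under a fold of 2, and none lay under 1. The median was 4.06, against 1.35 in listed regions with 1 to 4 reads. These medians restate the precipitated read numbers, since most regions of both sets held 0 input reads and stood at the floor. With reads summed over regions and no floor, the ratio was 105 at 1 or 2 reads and 136 at 3 or 4. It was 63.6 at 5 reads, 101 at 6, 45.1 at 7 to 9, 23.3 at 10 to 19 and 8.49 at 20 or more.
Intervals of the ratio cover counting error only, and even that in part, since PCR copies of a molecule can be counted as separate reads. Fragments were taken in the precipitation alone, and each input read entered as separate. The intervals would be wider if input mates were counted in pairs too, which was not tested. Computed on fragments, the interval's lower end lay above 1 for 10340 regions (92.0%; background 1.92%), a count that also restates the rule, since 5 or more reads against 0 give a lower end of at least 1.68. Among the 153 regions with 4 or more input reads, where the input gives a measured ratio, the median was 4.64 and the lower end lay above 1 for 113.

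**Figure D1:**
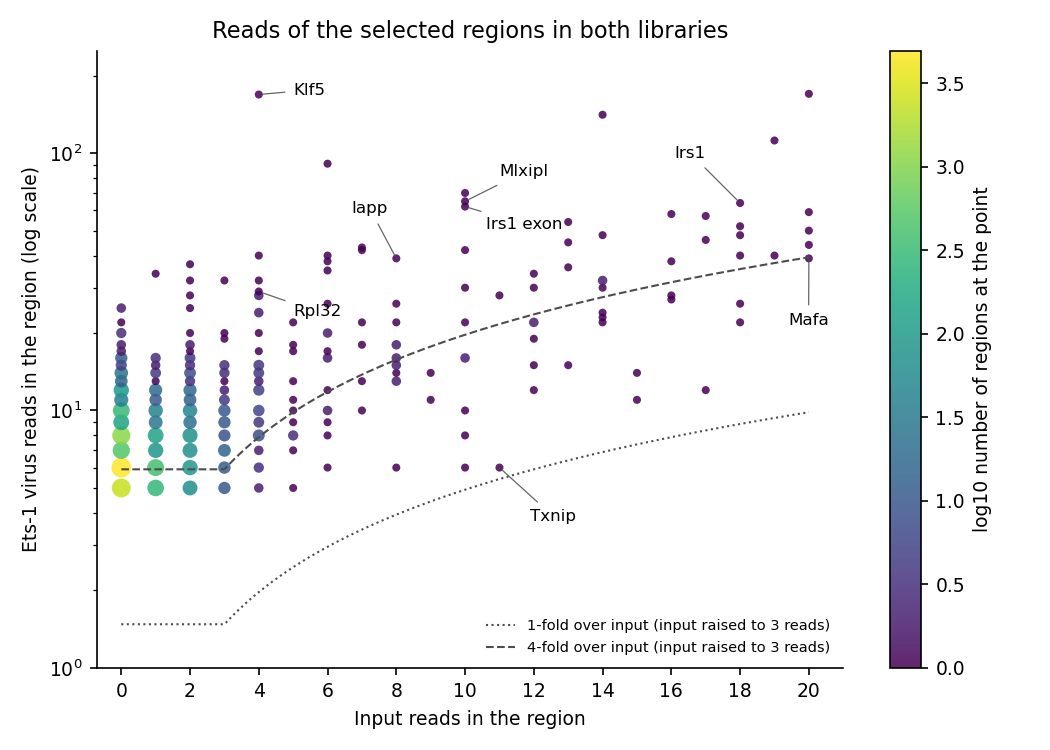
Reads of each of the 11236 regions in the input (horizontal axis) and in the Ets-1 precipitation (vertical log axis). Points are read number pairs, with size and colour for how many regions share them, and the lines mark 1-fold and 4-fold after scaling with input raised to 3 reads. Most regions sit at 0 input reads and 5 or 6 precipitated reads, Klf5 stands alone at 169 and 4, and Txnip at 6 and 11 lies near the 1-fold line.

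Input was denser at the best-read regions. Input reads were set beside the number an evenly covered genome would yield, 0.672 for a region of the median width of 437 bp. Listed regions with 1 or 2 precipitated reads held 0.0810 times the even input. Regions with 5 reads held 0.243 times, those with 6 held 0.162 times, those with 7 to 9 held 0.455 times, those with 10 to 19 held 1.24 times, and those with 20 or more held 11.1 times. By these counts, listed regions with few precipitated reads held less input than even coverage, while the few best-read regions held more. Why input was so thin at the former was not tested. Over the 1643 regions with an input read, Spearman's rho between the read numbers was 0.448, and over all 11236 it was 0.175, as descriptions across regions of the same libraries. Summed over all members, the precipitation held 75300 reads, 3.88% of its library, and the input 3365, 0.0855% of its own.

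The share of regions at promoters, which the deposited annotation sets by distance to a start site, was higher at more reads as well. It was 7.40% at 1 or 2 reads, 12.6% at 5, 12.1% at 6, 16.8% at 7 to 9, 21.98% at 10 to 19 and 35.9% at 20 or more. Both the promoter share and the input were lower at 6 reads than at 5 and rose at each further step, and the part of the input in the promoter share was not tested.

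**Figure D2:**
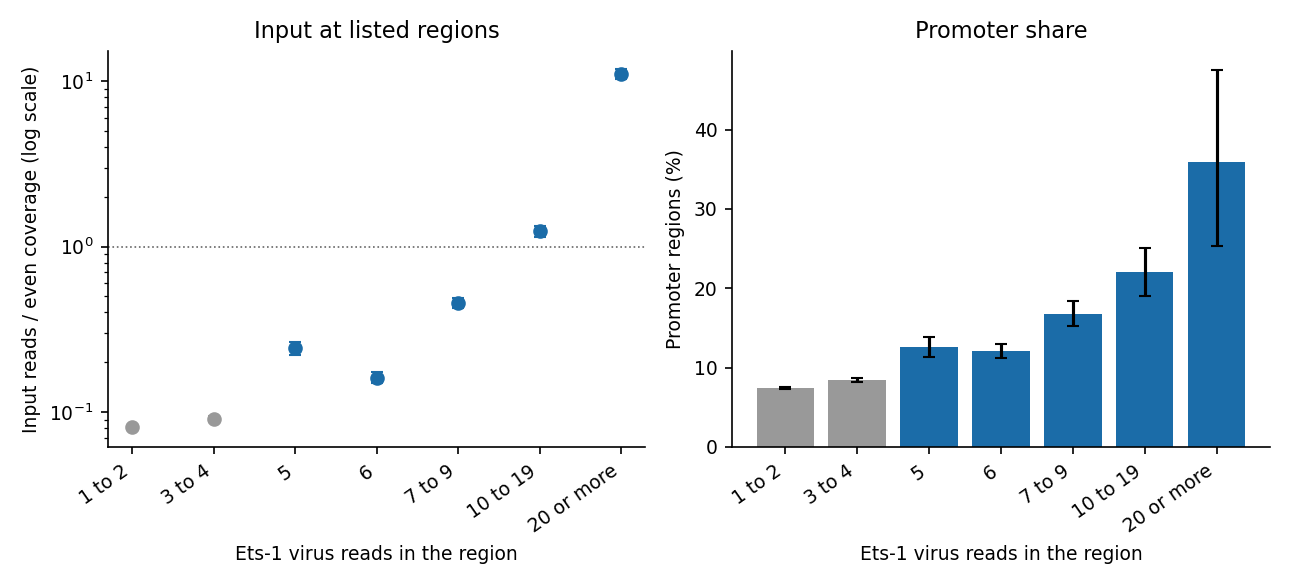
Input reads relative to even coverage (left, log axis) and share of regions at promoters (right) by the number of Ets-1 virus reads, with 95% exact intervals for counting error. Grey marks regions under 5 reads, blue the regions described here. Both measures are higher at 10 or more reads than at 5 or 6, and input passes even coverage at 10 to 19 reads.

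Of the 11236 regions, 5341 (47.5%) were distal intergenic, 3678 (32.7%) intronic and 1568 (13.96%) at promoters. Exons held 296, 3′ UTRs 169, stretches downstream of genes 168 and 5′ UTRs 16. Beside listed regions with 1 to 4 reads, promoters were more frequent (13.96%, interval 13.3 to 14.6, against 7.56%) and distal regions less so (47.5% against 53.4%). Introns took nearly the same share, 32.7% against 33.5%. Promoter members were also the class with the most input, at 0.931 times even coverage against 0.397 in introns and 0.276 in distal regions. The median of precipitated reads was 6 in each of these classes. Their summed ratios over input, 23.2 at promoters, 47.8 in introns and 63.3 in distal regions, thus restate how much input each class held. Regions that are at least 90% repeat-masked were fewer than at 1 to 4 reads, 9.20% against 13.9%. On chromosome X 1.81% of the regions under an Ets-1 virus peak were members (interval 1.61 to 2.04), below every autosome, where the share ran from 4.02% on chromosome 14 to 6.07% on chromosome 16.

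Promoter members lay closer to start sites and in DNA richer in CG. Their regions spanned a start site in 35.3% of cases against 12.9% at 1 to 4 reads, and 67.5% against 54.5% had a protein-coding gene as the nearest. The observed to expected ratio of CG dinucleotides, which is high in the CpG islands of broadly used genes, was 0.6 or more in 550 of 1568 promoter members (35.1%) against 7.76%. Members were also wider, 437 bp against 249 bp at the median over all classes.

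The ETS word with a CG was more frequent at the centres of promoter members than beside them. CCGGAAGT, on either strand, lay in the 200 bp around the centre of 37 of 1568 promoter members, 2.36% (interval 1.67 to 3.24). Windows 2 kb to either side held it in 2 of 3136 cases, 0.0638%, and promoter regions with 1 to 4 reads in 67 of 18973, 0.353%. Base composition differed between these sets, so the same count was made among regions with a CG ratio of 0.6 or more. There 33 of 550 members held the word, 6.0% (4.17 to 8.32), against 34 of 1472 regions with 1 to 4 reads, 2.31% (1.60 to 3.21). When the regions had to span a start site as well, the shares were 7.25% of 400 members (4.91 to 10.2) and 4.08% of 686 (2.73 to 5.85), whose intervals overlap.

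The GC box and the cyclic AMP response element were also more frequent at the centres, but not every promoter word searched was. The GC box (GGGCGG, both strands), the site of Sp factors in CpG islands, lay in 22.6% of promoter members, 3.99% of windows beside them and 5.37% of promoter regions with 1 to 4 reads, and within the CG-rich regions in 54.7% against 37.0%. The cyclic AMP response element (TGACGTCA), which holds a CG, lay in 10 of 1568 promoter members (0.638%) and in 3 of 3136 windows beside them (0.0957%). In CG-rich regions it lay in 1.45% of members and 1.15% of regions with 1 to 4 reads. The E-box (CACGTG), which also holds a CG, lay in 2.81% of promoter members (2.05 to 3.75). Windows beside them held it in 2.33% (1.83 to 2.92), and these intervals overlap. The CCAAT box (CCAAT), which holds no CG, lay in 23.1% of promoter members and 25.2% of windows beside them. An excess at centres over the windows beside them is thus not particular to the ETS word. The ETS words read in reverse order (TGAAGGCC and TGAAGGAC), which hold no CG and so do not follow CG content, lay in 1.47% of promoter members and 1.85% of windows beside them. Among promoter members the share with CCGGAAGT did not rise with the reads: it was 3.76% at 5 reads, 1.52% at 6, 2.96% at 7 to 9, 1.22% at 10 to 19 and 3.57% (1 region of 28) at 20 or more. Outside promoters the word lay in 0.134% of member windows and 0.0931% of windows beside them, and both words together in 1.38% against 1.20%. For comparison, CCGGAAGT occurs in 3.89% of the 300-base promoters of RefSeq (GRCm38.p6), and either word in 7.07%, above the 4.40% of promoter member windows of that length with either word. A match of letters is a description and not a bound site.

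**Figure D3:**
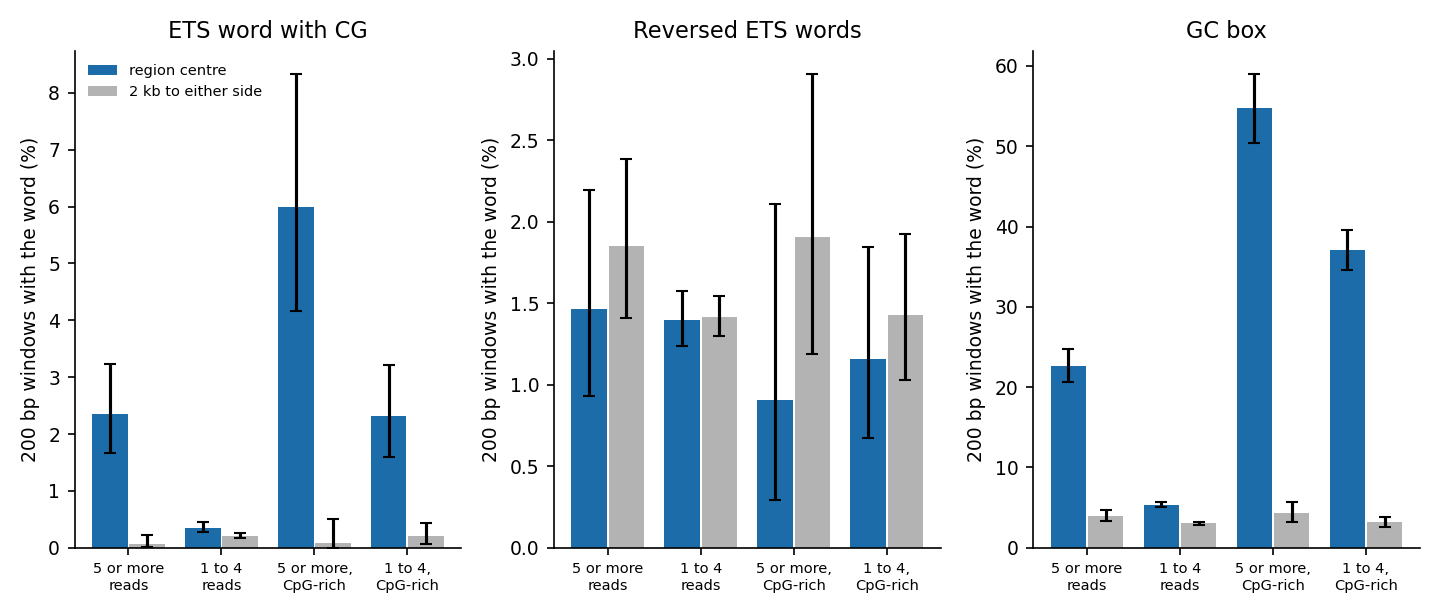
Share of 200 bp windows with CCGGAAGT (left), with the reversed ETS words (middle) and with a GC box (right) at promoter regions with 5 or more and with 1 to 4 Ets-1 virus reads, and in those with a CG ratio of 0.6 or more (CpG-rich). Blue bars are region centres, grey bars windows 2 kb to either side, with 95% exact intervals. The ETS word with a CG and the GC box are higher at region centres with 5 or more reads than beside them. The reversed words, which hold no CG, are at 1.47% and 1.85%.

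The 37 promoter members with CCGGAAGT held 39 such words, which lay close to start sites. The median distance to the nearest protein-coding start was 32 bp, and 30 words lay within 100 bp. Upstream of that start lay 27 words and downstream 12, and 20 were on the strand of the gene. The regions spanned an annotated start in 31 cases and held 0 input reads in 21, with at most 4 input reads. Their median of 6 precipitated reads was that of the other promoter members.

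**Figure D4:**
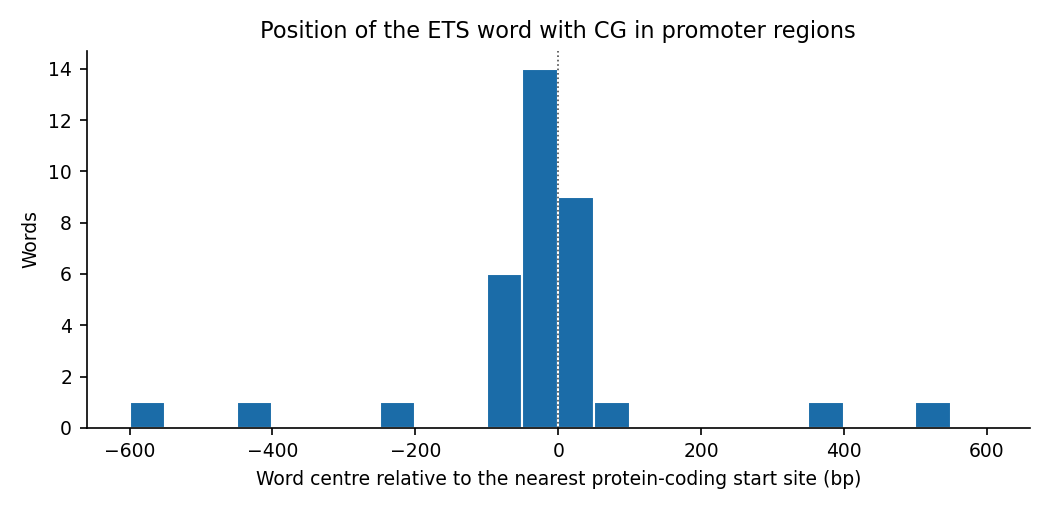
Distance of each CCGGAAGT word in promoter members from the nearest protein-coding start site, in bins of 50 bp, with upstream positions negative. Of 39 words 35 lie within 600 bp and are drawn, and 23 have their centre within 50 bp.

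The genes at these words hold varied roles, as the following examples give. The Rpl32 promoter, of a protein of the large ribosomal subunit, held 29 reads against 4, a ratio of 14.7 (4.85 to 63.1) and the highest of the named promoter regions once input is raised to 3 reads, with the word 66 bp upstream of the start. Emc7, a subunit of the endoplasmic reticulum membrane complex, held 15 against 3, with the word 32 bp downstream. At the promoter named for Kdm5a, a histone demethylase, 14 reads stood against 3, and the nearest coding start to the word is that of Ccdc77. Akt1s1, an inhibitor of the kinase mTOR, held 9 against 1, and Bms1, a ribosome assembly factor, 9 against 2. Ndufs1, a subunit of respiratory complex I, and Arfrp1, a Golgi GTPase, held 8 against 1 each, and Naxd and Vmp1 8 against 0. Tsc2, which restrains mTOR with Tsc1, and Kat8, a histone acetyltransferase, held 6 against 0. CAGGAAGT without the other word lay in 12 promoter members, among them Hist1h1c, a linker histone, and Slc4a1ap, with 10 reads against 0 each, Sdf2l1 with 6 against 0, and Tpi1, a glycolytic enzyme, with 5 against 0.

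Of the 10 named promoter regions with the highest ratios, Rpl32 had an ETS word at the centre, and the others had none. Mlxipl, which encodes the glucose-responsive transcription factor ChREBP, held 65 reads against 10, 13.2-fold (6.45 to 30.5), at chr5:135132360-135134066 across its start site. Carmil3, a regulator of actin capping, held 28 against 4 (14.2-fold), but no Ets-1 virus peak of the deposited list overlapped that region. Banf1, which binds DNA at the nuclear envelope, held 20 against 2, in a region that also holds the start of Eif1ad. Its ratio was 13.5-fold with input raised to 3 reads and 20.3-fold without (interval 4.33 to 191). The region at the start of Arid5b held 20 against 3 and that of Rnf187 19 against 3. Ctnnb1, which encodes β-catenin, held 24 against 4 (12.2-fold). Mrps28, of the mitochondrial ribosome, and Xkrx held 16 against 2 each. Atp6v1f, a subunit of the proton pump of lysosomes and granules, held 16 against 0, 10.8-fold higher against the floor of 3 input reads. The lower end of its exact interval, 6.93, lies below that floor value.

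**Figure D5:**
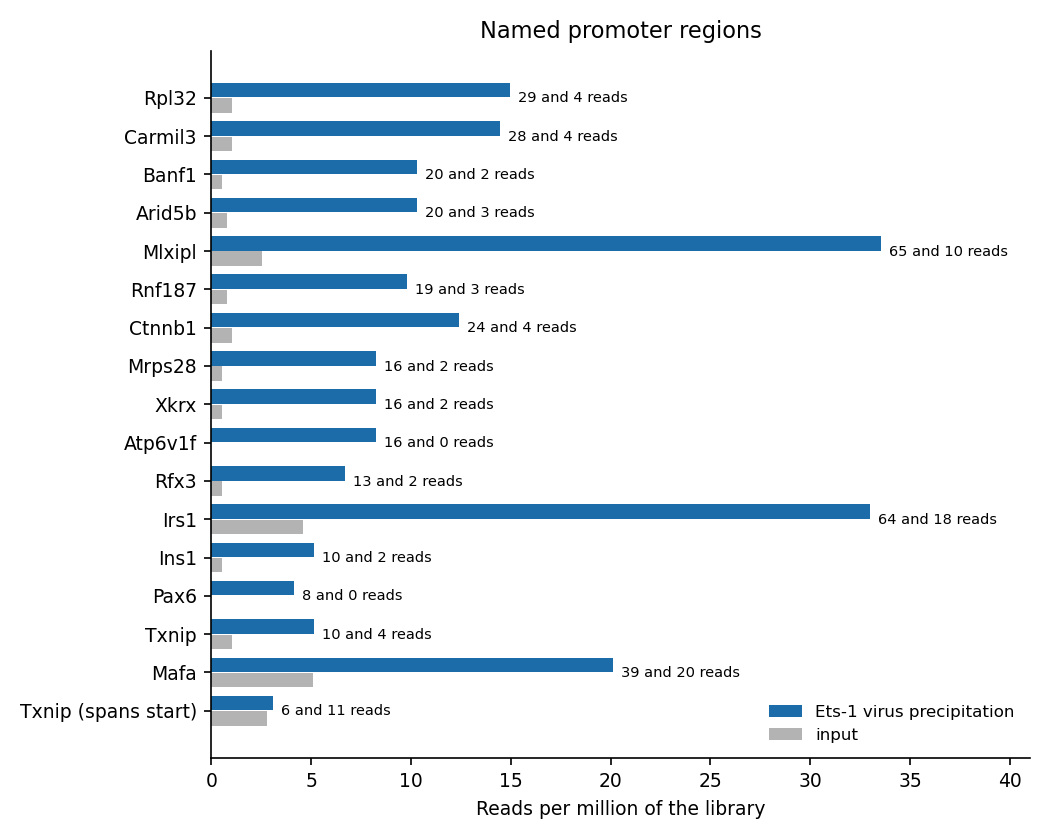
Reads scaled to the library (RPM, from counts without an added read) in the Ets-1 precipitation (blue) and the input (grey) at named promoter regions, ordered by ratio with input raised to 3 reads, with the read numbers of each library beside the bars. Mlxipl and Irs1 have the longest blue bars, Mafa and Irs1 the longest grey bars, and the Txnip region that spans the start site has nearly equal bars.

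Among intronic regions assigned to genes with a symbol that are not predicted, the highest ratios with input raised to 3 reads lay at Amz1, with 32 reads against 3 (21.7-fold, 6.20 to 116), Dtx4, a Notch pathway ubiquitin ligase, with 22 against 0, and Mmp1a, a collagenase, with 20 against 0. Against the floor Dtx4 was 14.9-fold and Mmp1a 13.5-fold higher, and the lower ends of their exact intervals were 10.2 and 9.11. The Amz1 region is annotated in an intron of another gene, 16903 bp from the start of Amz1, and is 84.3% repeat-masked. Myo7a held 18 against 2 and St8sia1 24 against 4. Among distal regions of such genes after Klf5, Itga11 held 40 against 6 (13.5-fold), Tacr1, the receptor of substance P, 18 against 0, and Hdac11 16 against 1. Regions that the table gives no gene symbol were frequent, 6415 of 11236. The best read of them held 141 reads against 14 on chromosome 17 (20.5-fold, 11.5 to 39.6) and 91 against 6 on chromosome 12 (30.8-fold, 13.3 to 89.2). These regions are 95.3% and 91.9% repeat-masked.

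Members of the insulin pathway and the glucose response stood at both ends of the range. Irs1, the insulin receptor substrate, held 64 reads against 18 in a region 922 bp from its start (7.22-fold, 3.93 to 13.7). A neighbouring exon region of Irs1 held 62 against 10 (12.6-fold, 6.02 to 28.8). Txnip, a glucose-induced inhibitor of thioredoxin, held 10 against 4 in a region 249 bp from a start site (5.08-fold, 1.09 to 25.6), with an Ets-1 virus peak. Its other region, which spans a start site, held 6 against 11, 1.11-fold (0.198 to 4.19), the lowest of all members, and had no Ets-1 virus peak. Also low were the promoters of Sfi1 with 11 against 15, of the DNA methyltransferase Dnmt1 with 5 against 5 (2.03-fold, 0.379 to 12.5) and of Dnmt3a with 22 against 18 (2.48-fold, 1.06 to 5.55), all without such a peak. In all 143 members overlapped no Ets-1 virus peak.

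The β-cell identity list names transcription factors and hormones that define these cells. Of its 23 genes named in the table, 9 had a member and 4 a promoter member, against 20.1% and 5.46% of all 18977 named genes. Mafa, an activator of insulin transcription, held 39 reads against 20 at its promoter, 3.96-fold (2.07 to 7.96). Among the member regions of this list it held the most input reads, at the limit of 20 above which regions were left out. A region 6622 bp from the start of Iapp, the hormone co-secreted with insulin, held 39 against 8 (9.90-fold, 4.28 to 26.7). It is annotated in an intron of another gene. Rfx3, needed for islet cilia, held 13 against 2 at its start site, and Pax6 8 against 0. The Rfx3 ratio was 8.80-fold with input raised to 3 reads and 13.2-fold without (2.71 to 140). Ins1 held 10 against 2 in a region 400 bp from its start, 6.77-fold with input raised to 3 reads and 10.2-fold without (1.66 to 107). The table assigns 4 distal regions to Ins1 as well, the nearest over 100 kb away, with 6 to 12 reads. Nkx6-1, Nkx6-2 and Isl1 had only regions outside promoters, with 6 to 8 reads against 0 or 1. No region assigned to Ets1 itself was a member.

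The other gene lists are given by counts of genes with a promoter member among the genes the table names, beside 5.46% (1036 of 18977) over all named genes. Insulin signalling and FoxO genes had 8 of 24, among them Tsc1, which restrains mTOR, with 8 reads against 1 and Foxo3, a transcription factor that insulin signalling holds back, with 6 against 0. Glucose sensing and channel genes had 6 of 22, with Pfkfb2, a regulator of glycolysis, at 8 against 0 and Pcx, pyruvate carboxylase, at 6 against 0. DNA replication and cell cycle genes had 5 of 20, with the clamp loader subunit Rfc4 at 12 against 0, the helicase subunit Mcm7 at 9 against 0 and Cdk2 at 7 against 1. Antioxidant genes had 4 of 16, with Sod1 at 7 against 0 and catalase (Cat) at 5 against 0. Cytosolic ribosomal proteins had 3 of 21, Rpl32, Rpl9 with 14 against 0 and Rpl28 with 6 against 2, and mitochondrial ribosomal proteins 4 of 28. Unfolded protein response genes had 2 of 17, with Xbp1 at 8 against 0, and oxidative phosphorylation genes 2 of 31.

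Secretory granule genes had a promoter member in 1 of 21, Scg3 with 6 reads against 0, and Cpe, the carboxypeptidase that trims insulin, held 11 against 0 in an intron. The ETS family had 0 of 22 at promoters, with 6 reads against 0 in intronic regions assigned to Elk3 and Etv1. Markers of cells that a β-cell line should not hold were at 1 of 12 for endothelial, immune and fibroblast cells (Col1a1, 5 against 0), 1 of 16 for acinar and duct cells (Spp1, 6 against 0) and 0 of 9 for other islet hormone cells. Granule, acinar and duct and oxidative phosphorylation genes, at 4.76%, 6.25% and 6.45%, lie close to the 5.46% of all named genes. With so few genes in a list these shares have wide intervals, from 15.6% to 55.3% for insulin signalling and from 0% to 15.4% for the ETS family. They are descriptions, and no list was tested against the others.

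All ratios depend on the scale. Library totals give 2.03 input reads per precipitated read, but the listed regions as a whole hold 42.8% of the precipitated reads and 2.96% of the input. Scaled to reads in listed regions instead, every ratio is 14.4 times smaller, and 1 region, that near Klf5, still reaches a fold of 4, at 5.94. Since the table lists regions for their precipitated reads, what a region's ratio would be in an unselected set was not tested.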

How the data were processed

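The comparison used Ets-1 ChIP-seq and input libraries of Min6 cells, 1 library each. The submitters' processing notes name build mm10 and the tools MACS2 2.1.0, BWA 0.7.12, Trimmomatic and FastQC, with settings not given in the sources used here. Counts of reads in each region of the comparison table are as deposited, as are RPM values (the count plus 1, scaled to the total) and their ratio, per the file headers. Each peak carries a fold (ratio), a score and −log10 p-values and q-values, which the authors deposited and which describe that peak only. Annotation classes and nearest genes are those of the deposited files. Peak list starts were raised by 1.

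Totals were recovered from counts and RPM. Ratios were computed on counts scaled to totals, with input raised to 3 reads. The 95% exact conditional binomial intervals use input reads as counted, each as separate. In the precipitated library they rest on fragments, 2 reads to a fragment and rounded up. Even counts prevailed there, and in the input among regions with 2 or more input reads. Whether the input was counted in the same way was not tested. Shares have exact Clopper-Pearson intervals, and input against even coverage exact Poisson intervals. ETS words were CCGGAAGT and CAGGAAGT, on both strands, in 200 bp windows at region centres and 2 kb to either side. The members and the 14 gene lists were chosen with earlier results of these data known.

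Named genes were the highest 10 promoter, 6 intronic, 6 distal and 3 exon or UTR members by ratio, without predicted genes, the 5 lowest promoter members, all members of the β-cell identity list and of Txnip, Ets1, Irs1 and Mlxipl, up to 4 of each other list, and for sequences the 6 highest promoter members with an ETS word; the text gives examples, and not all items so selected are reported. Other promoters with an ETS word, regions without a symbol and the Klf5 start site were named after their values were seen. Alternatives were other read minimums, folds, floors and scalings, other promoter distances, windows and words. Tested on simulated data, 99.4% of 20000 intervals of the Ets-1 precipitation over input held the true ratio, and a planted fold of 4 was recovered as 3.97 over 200 regions. How far PCR copies or paired input mates affect the intervals of the real libraries cannot be read from simulated fragments. The tools were samtools 1.23.1, pysam 0.24.0, scipy 1.17.1, pandas 2.3.3, numpy 2.4.6, matplotlib 3.10.9 and Python 3.11.15.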

Additional observations from a re-analysis of the deposited data

Results flagged for a closer look

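Regions outside the limits of the comparison also held more Ets-1 virus reads than input. On scaffolds and chromosome Y, 38 regions with 5 or more Ets-1 virus reads held 3719 of them against 943 input reads, a summed ratio of 8.01 after scaling. The 94 regions with more than 20 input reads and 5 or more Ets-1 virus reads held 241882 against 73031, a summed ratio of 6.73. One satellite region holds 122344 and 38590 of these reads, a ratio of 6.44. Of the 94 regions 24 hold satellite words, and the other 70 gave 4.60. Input was the control for both, and neither set entered the comparison.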

How the results depend on the processing

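No paired analysis was possible because each side holds 1 library, and for the same reason no replicate could be left out. Minimums of 4, 8 and 10 reads gave 37212, 2380 and 824 members in place of 11236. A fold of 4 was reached by 8444 members; a fold of 8 left 265, scaling to reads in listed regions left 1, and a peak q of at most 0.05 (chosen after seeing the data) left 2521. The promoter share of 13.96% became 11.5% within 1000 bp and 8.89% within 500 bp of a start site, and 18.3% and 23.3% with minimums of 8 and 10 reads. The share of members with an ETS word, 1.62%, became 0.783% and 3.11% in windows of 100 and 400 bp, 3.49% in whole regions, 0.445% for CCGGAAGT alone, 42.7% for the core GGAAG and 1.39% for reversed words. Genes of the lists with a member, 70, became 40 with promoter regions only. The share of promoter members with CCGGAAGT, 2.36%, became 6.0% among those with a CG ratio of 0.6 or more, 3.60% within 500 bp and 7.25% in CG-rich regions that span a start site, limits chosen after seeing the data. Depth limits single regions: 6 reads against 0 allow an interval down to 1.68, which any region with 5 or 6 reads and no input read has by construction. For 896 members the interval reaches 1 or below.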
